A study of Mus musculus with 10 samples.

Results

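The regions described here are stretches of chromatin outside transcription start sites that carried more acetylation of histone H3 lysine 9 (H3K9ac) at 24 h of adipocyte differentiation than at another time and lay near a binding site of C/EBPβ but not near one of the glucocorticoid receptor (GR). They were selected by position from the deposited lists of 3T3-L1 cells: a region of the H3K9ac 24 h list with a C/EBPβ 6 h peak at a gap under 1 kb and no GR 6 h peak at a gap under 1 kb. This rule found 294 of 1629 regions of that list. Another 275 had both factors within 1 kb, 71 had GR alone and 989 had neither. Positions in these 3 lists made the choice, so that the nearness of C/EBPβ and the lack of GR at 6 h are not results.

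3T3-L1 is a mouse fibroblast line that turns into adipocytes in culture. The study profiled H3K9ac at 0, 24 and 240 h, C/EBPβ at 0 and 6 h and GR at 6 h by chromatin immunoprecipitation and sequencing (ChIP-seq), where 0 h means undifferentiated cells and the other times count from induction. All samples were this 1 line, and the labels name neither a genetic change nor the agents of the standard differentiation protocol. The H3K9ac 24 h list holds regions that the authors called differentially enriched relative to 0 or 240 h, so that it rests on the H3K9ac libraries of other times as well, and each mark or factor has 1 library at each time.

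C/EBPβ is a basic leucine zipper factor that is induced early when preadipocytes are driven to differentiate and precedes the factors that maintain the adipocyte, among them C/EBPα and PPARγ. GR is a nuclear receptor that moves to DNA when bound by a glucocorticoid such as dexamethasone, a usual part of adipogenic mixtures. H3K9ac is a mark of active promoters and enhancers, laid down by histone acetyltransferases that transcription factors recruit. The rule measures GR from the region, not from the C/EBPβ peak, so a C/EBPβ peak beside a region can itself have GR near it.

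The mark itself was no stronger in these regions, by median and quartiles, than in all 24 h regions. The average read count of the 294, the authors' read signal for a region, ran from 7 to 15. Its median was 9 and its quartiles were 9 and 10, the same values as for all 24 h regions. The most frequent value was 9, in 112 regions, and 8 regions reached 13 or more as 6 at 13, 1 at 14 and 1 at 15. Regions near both factors ran from 7 to 18 with a median of 10, and regions near neither from 7 to 17 with a median of 9. The median width was 1550 bp (quartiles 1100 and 2250 bp), between 1800 bp near both factors and 1200 bp near neither. A wider region meets a peak more easily, so width is bound up with the rule and was not tested.

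The false discovery rate (FDR) that the authors gave each region placed these regions between the other classes. An FDR listed as 0, the lowest step, was given to 58 of the 294 regions (19.7%, 95% Wilson interval 15.6 to 24.7%), where 17.6% of all 24 h regions had it. The share was 33.5% near both factors and 11.5% near neither. The difference was -13.7 points from the former (95% Newcombe interval -20.8 to -6.48) and 8.20 points from the latter (3.54 to 13.5). All intervals cover counting error alone, because a second library of any group, which would show the spread between cultures, was not used here. Both differences were lost among regions of 1000 to 1500 bp, where FDR 0 was given to 5.34% of the regions with C/EBPβ alone, 8.91% of those with both factors and 6.18% of those with neither. They were lost too among regions with the median read count.

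The regions with the highest average read counts varied widely in their C/EBPβ peaks. The highest average read count, 15, belonged to a region on chromosome 12 at 70916700 to 70918000 (positions as deposited, on mm8), whose only C/EBPβ 6 h peak had a height of 14. Peak height is the authors' read signal at a peak and starts at 12 in each factor list. A second region of chromosome 12, at 80282700 to 80285800, followed with a read count of 14 and a peak of height 26 that overlapped it. Neither had a C/EBPβ peak within 1 kb at 0 h, and their nearest GR peaks were 26900 and 5811 bp away. Of the 6 regions with a read count of 13, the region on chromosome 9 at 116190400 to 116192600 had the weakest C/EBPβ peak, with a height of 12. The strongest, with a height of 38 each, were found for chromosome 15 at 96544750 to 96547400 and for chromosome 10 at 87813700 to 87814850. The region on chromosome 15 was the only one of these 6 near a C/EBPβ 0 h peak, which had a height of 14. For the region on chromosome 3 at 152005450 to 152011600, the C/EBPβ 6 h peak of height 36 overlapped a 0 h peak of height 39, but the latter lay beyond 1 kb of the region. The GR peak nearest to this region had a height of 21 and lay 1168 bp from it, just outside the limit of the rule.

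Very broad domains were few. Only 8 of the 294 regions were 5000 bp wide or wider, and 14 were under 1000 bp. The broadest, on chromosome 8 at 13471900 to 13486200, spanned 14300 bp with a read count of 12 and contained a single C/EBPβ 6 h peak of height 26. That site was already listed at 0 h with a height of 28. Heights at the 2 times come from separate libraries and give no change. The next broadest, on chromosome 16 at 24860000 to 24868400, spanned 8400 bp with a read count of 11 and had 3 C/EBPβ 6 h peaks near it, the highest at 38, and none at 0 h.

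**Figure D1:**
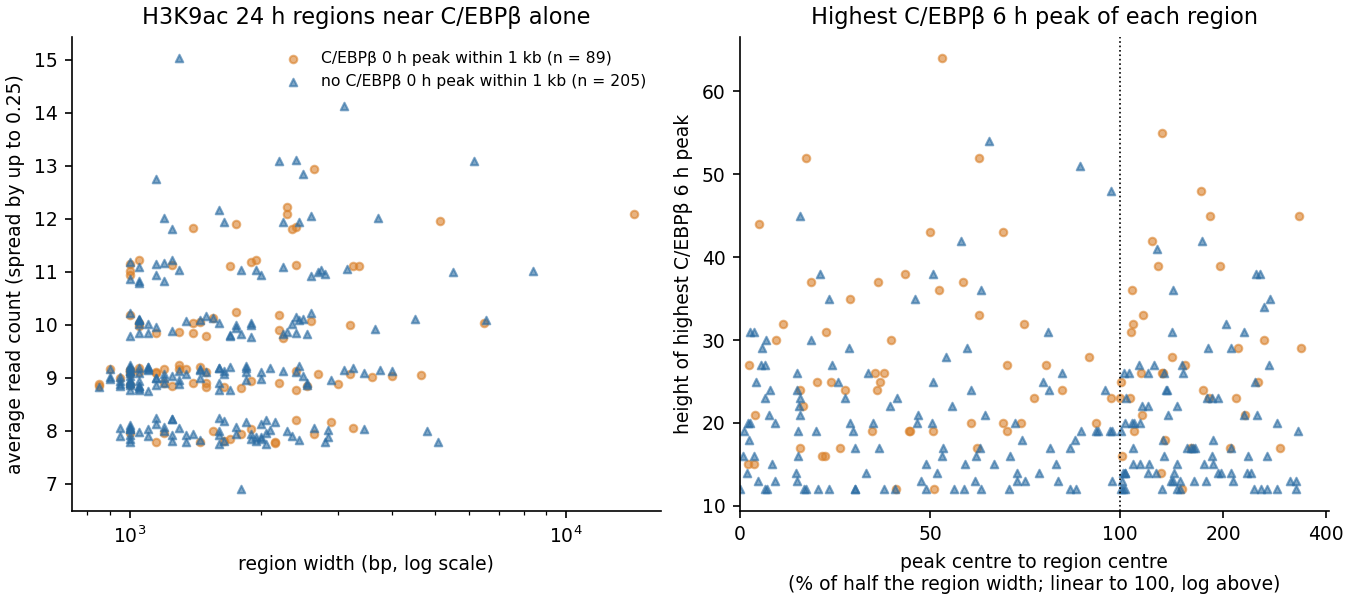
The 294 H3K9ac 24 h regions near C/EBPβ alone, 1 point a region, as orange circles where a C/EBPβ 0 h peak lay within 1 kb (n = 89) and blue triangles where none did (n = 205). Left, width (log scale) against the authors' average read count, with points spread by up to 0.25 to separate them; right, distance of the highest C/EBPβ 6 h peak's centre from the region's centre, where values over 100 lie outside the region, against its height, whose tallest value is 64.

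Most regions had 1 C/EBPβ 6 h peak: 255 had 1, 35 had 2 and 4 had 3. The regions are not independent of each other here, since 20 of them shared a C/EBPβ peak with another of the 294. At least 2 peaks lay near 39 regions (13.3%, 9.86 to 17.6%), against 6.26% of all 24 h regions and 22.9% of those near both factors. Regions near neither factor or near GR alone have no such peak by the rule, which lowers the share over all 24 h regions. The difference from regions near both factors was -9.64 points (-15.96 to -3.33). It was -1.28 points (-12.4 to 8.92) among regions with the median read count and also lost its call in regions of 1000 to 1500 bp and with only the peaks above the median of each factor list. The same C/EBPβ list and gap chose both classes. Regions near both factors were also wider (median 1800 against 1550 bp) and can meet more peaks, so no conclusion is drawn from this difference. The 4 regions with 3 peaks included one on chromosome 14 at 69984050 to 69986350 (read count 12, highest peak 36) and one on chromosome 8 at 129568750 to 129573250 (read count 10, highest peak 30).

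C/EBPβ peaks were lower here than where GR was also listed. The highest C/EBPβ 6 h peak of a region had a median height of 20 (quartiles 15 and 27, range 12 to 64), against 31 near both factors (quartiles 19.5 and 43, range 12 to 91). The lower quartile near both factors was close to the median here, so the 2 sets overlap widely. Its fold enrichment, the authors' ratio over a background, had medians of 8.905 and 11.93, and its width medians of 322.5 and 466 bp. No test was made, as all these peaks come from 1 library. Near both factors the highest peak is also taken from more peaks, since 22.9% of those regions had at least 2, against 13.3% here. Against the other C/EBPβ 6 h peaks away from GR, the peaks of these regions were slightly higher, with a median of 19.5 over 322 peaks and 17 over 17257.

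The tallest C/EBPβ peak among the 294 regions reached 64, with a fold enrichment of 28.31. It overlapped a region on chromosome 8 at 80658200 to 80659550 with a read count of only 9. The next had a height of 55 and belonged to the region on chromosome 2 at 137545000 to 137546050. The other 3 belonged to regions of chromosome 6, with 54 at 115371700 to 115373450, 52 at 99401750 to 99403250 and 52 at 87155050 to 87156200. Of these 5 sites 4 were already listed at 0 h, with heights of 56, 27, 36 and 38. The exception was the site at 115371700, which appeared only in the 6 h list and whose region lay 1200 bp from another H3K9ac 24 h region and 3747 bp from a GR peak of height 16. The region at 87155050 directly adjoined an H3K9ac 0 h region, the only one of the 294 to do so. The smallest gap to a 0 h region was also 0 bp among regions near neither factor, and 1700 bp among those near both.

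A C/EBPβ 6 h peak overlapped 210 of the regions (71.4%, 66.0 to 76.3%), where 26.0% of all 24 h regions overlapped one, and the other 84 had it in the flank, at a median gap of 373.5 bp. The share over all 24 h regions counts those with no C/EBPβ peak within 1 kb, which cannot overlap one. The centre of the highest peak fell within 50% of the way from the region's centre to its edge in 97 cases (33.0%), further out but inside the region in 71 (24.1%) and outside it in 126 (42.9%). Near both factors these counts were 88, 81 and 106 of 275. The median distance between the centres of peak and region was 651 bp here and 709.5 bp near both factors. The share that overlapped a peak differed from that near both factors, 77.8%, by -6.39 points (-13.4 to 0.784), within counting error. The difference was called, at -8.25 points (-15.9 to -0.832), when regions with GR within 10 kb were counted as near GR. That setting itself moves regions with GR at 1 to 10 kb into the other class. The gap to a C/EBPβ peak also entered the rule for both classes, so no conclusion is drawn from either difference.

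The next comparison asked whether C/EBPβ was already present before induction. It was listed at 0 h near 89 of the 294 regions (30.3%, 25.3 to 35.8%), where 11.6% of all 24 h regions had such a peak. The other 205 had no C/EBPβ 0 h peak within 1 kb. Regions without C/EBPβ at 6 h seldom had it at 0 h, which lowers the share over all 24 h regions. It was listed then near 6 of 989 regions near neither factor and 1 of 71 near GR alone. In regions chosen by the same factor rule from the other H3K9ac lists, C/EBPβ at 0 h was more frequent. It lay near 527 of 929 regions of the 0 h list (56.7%, 53.5 to 59.9%) and 383 of 837 regions of the 240 h list (45.8%, 42.4 to 49.1%). The 24 h regions differed by -26.5 points (-32.3 to -20.1) from the 0 h regions and by -15.5 points (-21.5 to -9.07) from the 240 h regions. Median heights of the highest C/EBPβ 6 h peak were 20, 19 and 19 in the 24, 0 and 240 h regions. The first difference held its call under every alternative run, at -33.5 to -21.0 points. The second lost it among regions with a read count of 9, at -13.1 points (-26.7 to 0.898), and where the highest C/EBPβ 6 h peak had a height of 17 to 29, at -8.41 points (-17.3 to 1.09).

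**Figure D2:**
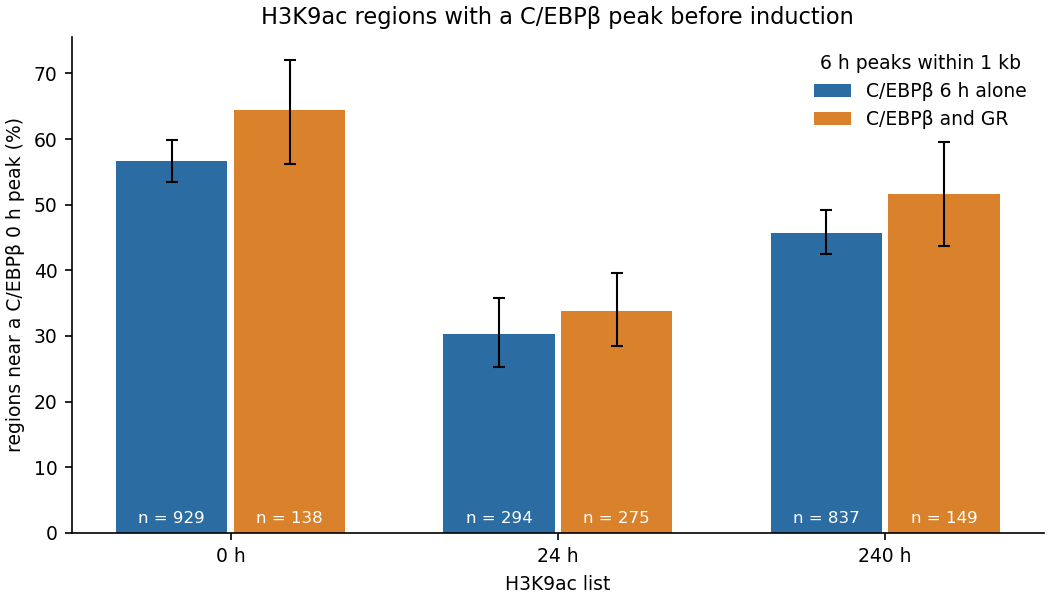
Share of H3K9ac regions with a C/EBPβ 0 h peak at a gap under 1 kb, by H3K9ac list (0, 24 and 240 h), for regions with C/EBPβ alone at 6 h (blue) and with GR as well (orange). Bars are percentages with 95% Wilson intervals and the number of regions at their base; the 24 h regions have the lowest shares in both colours, 30.3% and 33.8%.

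Against 24 h regions near both factors, where 93 of 275 (33.8%) had C/EBPβ at 0 h, the difference was -3.55 points (-11.2 to 4.10), within counting error. Within each of 3 classes of C/EBPβ peak height, chosen after the data were seen, the difference had the opposite sign, and in 1 of them it was called. Where the highest C/EBPβ 6 h peak had a height of 17 to 29, a 0 h peak lay near 50 of 145 regions with C/EBPβ alone (34.5%) and near 11 of 83 with both factors (13.3%). That difference was 21.2 points (9.72 to 31.1). At heights of 12 to 16 the counts were 9 of 94 and 1 of 40, a difference of 7.07 points (-4.22 to 14.98), and at 30 or more 30 of 55 and 81 of 152, a difference of 1.26 points (-13.9 to 15.99). Peaks of 30 or more were the most frequent class near both factors and the least frequent near C/EBPβ alone.

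At the level of single peaks, the C/EBPβ 6 h sites beside these regions were less often old sites than C/EBPβ 6 h sites elsewhere. A C/EBPβ 0 h peak was overlapped by 86 of 322 peaks near the regions and away from GR (26.7%) and by 6125 of 17257 other peaks away from GR (35.5%), where the figure for all C/EBPβ 6 h peaks was 35.7%. The difference was -8.78 points (-13.4 to -3.65). It was present in each height class. Peaks of height 12 to 16 were listed at 0 h in 8 of 114 cases near the regions (7.02%) and in 20.8% elsewhere, those of 17 to 23 in 25 of 98 (25.5%) and 35.5%, and those of 24 or more in 53 of 110 (48.2%) and 62.5%. The intervals of the 3 differences ran from -17.4 to -7.53, from -17.7 to -0.484 and from -23.5 to -4.95 points. With peaks near H3K9ac 0 h or 240 h regions removed from both sides it was -7.13 points (-11.8 to -1.89). The 2 sets of peaks are unlike in kind. The other peaks were not limited to sites outside transcription start sites, nor to sites with H3K9ac. Whether this enters the difference was not tested.

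**Figure D3:**
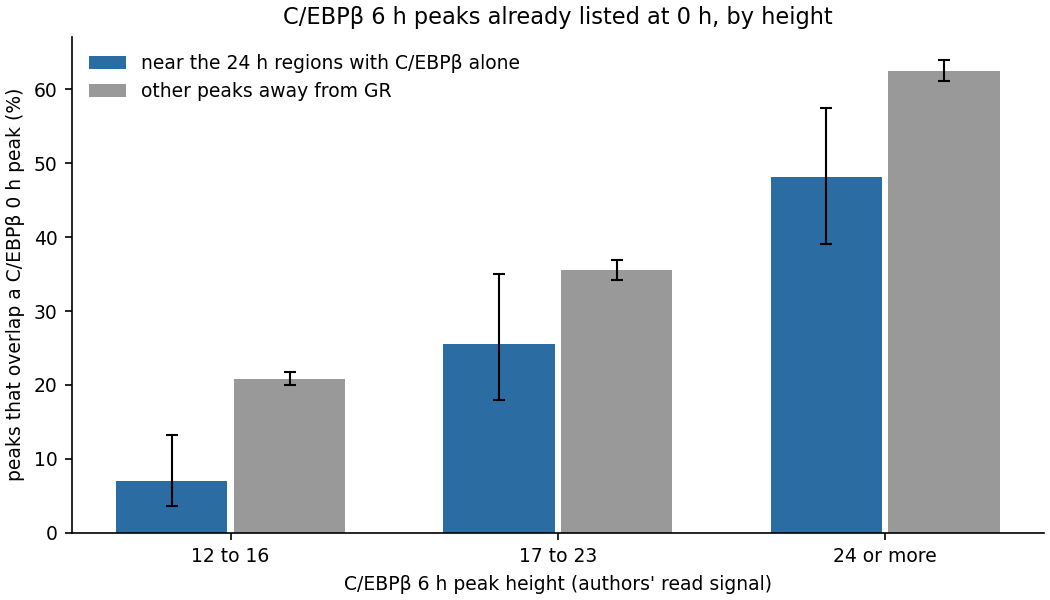
Share of C/EBPβ 6 h peaks listed at 0 h as well, by the height of the 6 h peak, for peaks beside the 24 h regions with C/EBPβ alone (blue; 114, 98 and 110 peaks) and for other peaks away from GR (grey; 8131, 4717 and 4409 peaks). Bars are percentages with 95% Wilson intervals, and the blue bar is the lower of the pair in each class.

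The 89 regions with C/EBPβ at 0 h and the 205 without had similar medians of the mark at 24 h. Both groups had a median width of 1550 bp and a median read count of 9, and the highest single read count was 13 in the former and 15 in the latter. They differed in C/EBPβ itself, whose highest 6 h peak had a median height of 25 where it was already listed and 19 where it was not. FDR 0 was given to 22.5% and 18.5% of them, a difference of 3.94 points (-5.54 to 14.7). A C/EBPβ 6 h peak overlapped the region in 75.3% and 69.8%, a difference of 5.52 points (-5.97 to 15.7). Neither difference could be told from counting error, and the intervals leave room for differences of more than 10 points.

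GR peaks beyond the 1 kb limit were counted next. The closest GR peak lay at a median gap of 22949.5 bp, and 82 regions (27.9%, 23.1 to 33.3%) had a GR peak at 1 to 10 kb, where 24.9% of all 24 h regions had one. Regions near neither factor, which lack GR within 1 kb by the same rule, had one in 23.3% of cases, a difference of 4.64 points (-0.902 to 10.6), within counting error. With the distance raised to 50 kb, chosen after the data were seen, 68.0% of the regions with C/EBPβ alone and 51.3% of those with neither had a GR peak, a difference of 16.8 points (10.4 to 22.7). Another 24 h region lay within 50 kb of 58.2% of the former. Such neighbours can share a GR peak, so this interval can be too narrow. The nearest misses of the rule on the GR side were a region on chromosome 3 at 157662850 to 157664050, 1058 bp from a GR peak of height 13, and, on the other side of the limit, a region on chromosome 6 at 34536350 to 34537650, 992 bp from a GR peak of height 15. On the C/EBPβ side the largest gap inside the limit was 998 bp, on chromosome 4 at 99473700 to 99476000, and the smallest outside it was 1027 bp, on chromosome 17 at 28231400 to 28234250.

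**Figure D4:**
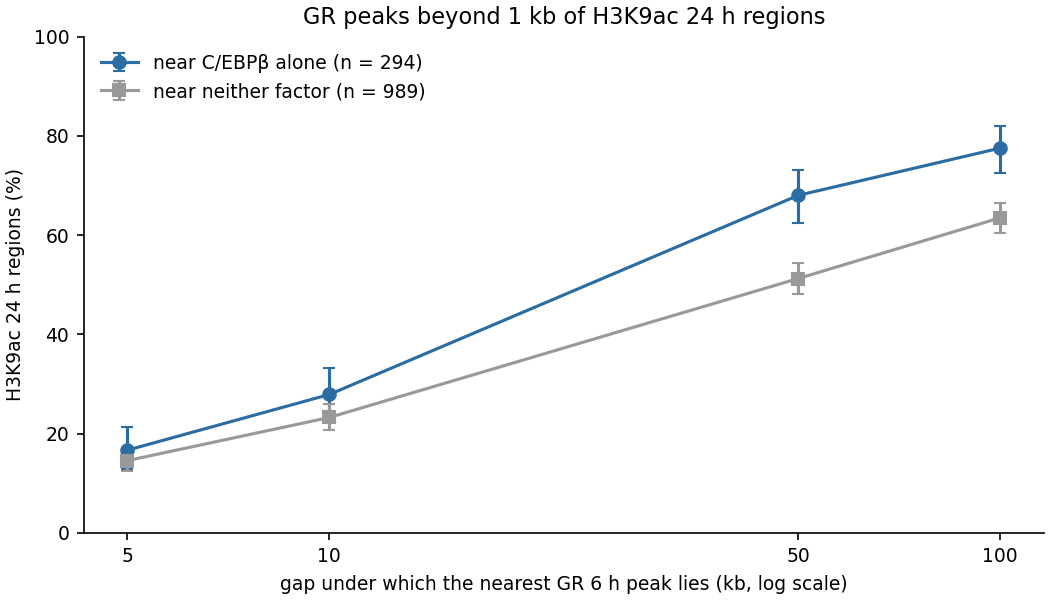
Share of H3K9ac 24 h regions whose nearest GR 6 h peak lies under the gap on the horizontal axis (log scale), for regions near C/EBPβ alone (blue circles, n = 294) and near neither factor (grey squares, n = 989), none of which has GR within 1 kb. Vertical bars are 95% Wilson intervals; the curves are 4.64 points apart at 10 kb and 16.8 points apart at 50 kb.

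The regions had neighbours of their own list more often than regions near neither factor did. Another H3K9ac 24 h region lay within 10 kb of 106 of the 294 (36.1%, 30.8 to 41.7%), where 30.8% of all 24 h regions had one, against 25.7% of regions near neither factor. The difference was 10.4 points (4.39 to 16.6), and among regions of 1000 to 1500 bp it was 6.67 (-1.04 to 15.4). Regions that neighbour each other are each counted, so the intervals of this paragraph can be too narrow. Near both factors the share was 40.7%, a difference of -4.67 points (-12.6 to 3.30). This difference was called when regions with GR within 10 kb were counted as near GR, at -13.7 points (-21.4 to -5.50), and when neighbours were sought within 5 kb, at -7.77 points (-15.3 to -0.100). The first of these settings moves regions with GR at 1 to 10 kb into the other class, and such regions can have a neighbour near GR. The change of class can thus shift both shares, which became 29.7% and 43.4%, so no conclusion is drawn from that call. With direct overlap in the rule the difference was 1.97 points (-7.24 to 11.1). Of the 106, 67 had a region near neither factor among these neighbours, 40 had another region with C/EBPβ alone and 27 had a region near GR. The whole 24 h list holds 989 regions near neither factor, 294 with C/EBPβ alone, 275 near both and 71 with GR alone. The counts were not tested against this make-up. Neighbours with C/EBPβ alone can also owe their class to 1 shared C/EBPβ peak. Regions of the other H3K9ac lists were seldom so close. An H3K9ac 0 h region lay within 10 kb of 23 (7.82%, against 8.04% of all 24 h regions) and a 240 h region within 10 kb of 19 (6.46%, against 7.67%). These shares differed from those of regions near neither factor by -1.07 points (-4.28 to 2.91) and -1.93 points (-4.90 to 1.82).

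Fixed windows of 100 kb show how such neighbours were arranged. Of the windows with any of the 294 regions, 219 held 1, 23 held 2, 7 held 3 and 2 held 4. The window on chromosome 3 from 151900000 held 4 regions with C/EBPβ alone among 9 regions of the 24 h list, with 6 peaks of C/EBPβ at 6 h, 3 of C/EBPβ at 0 h, 3 of GR and no H3K9ac region of 0 or 240 h. Its 4 regions had read counts of 8, 10, 12 and 10 from left to right and C/EBPβ peaks of height 25, 39, 37 and 12, and the last 3 of these sites were listed at 0 h. The first region illustrates the limit of the rule: the C/EBPβ peak of height 25 that placed it in the set itself overlapped a GR peak of height 18, which lay 1410 bp from the region. The C/EBPβ peak of the second region, of height 39, also had GR within 1 kb. It ended at 151942333, and a GR peak of height 12 began at 151942871. Of the 326 C/EBPβ 6 h peaks near the regions, 4 had GR within 1 kb of the peak. The rule keeps this count low by itself, since it leaves out every region with GR within 1 kb.

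The window on chromosome 17 from 3100000 also held 4. They lay in a row between 3152350 and 3164650, separated in part by a region near neither factor, with read counts of 9, 8, 11 and 8 and C/EBPβ peaks of height 20, 12, 12 and 31. The 2 in the middle shared 1 C/EBPβ peak, and no C/EBPβ 0 h peak was listed in the window. The row ended 10174 bp from a GR peak of height 120, which lay with a C/EBPβ peak of height 46 inside a region near both factors, at 3173150 to 3181200, with a read count of 12. In the window on chromosome 3 from 93600000, the first by position of the 7 with 3, all 3 regions of the 24 h list had C/EBPβ alone, with read counts of 7, 10 and 12. An H3K9ac 240 h region stood between the last 2, at 2150 bp from the left one.

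**Figure D5:**
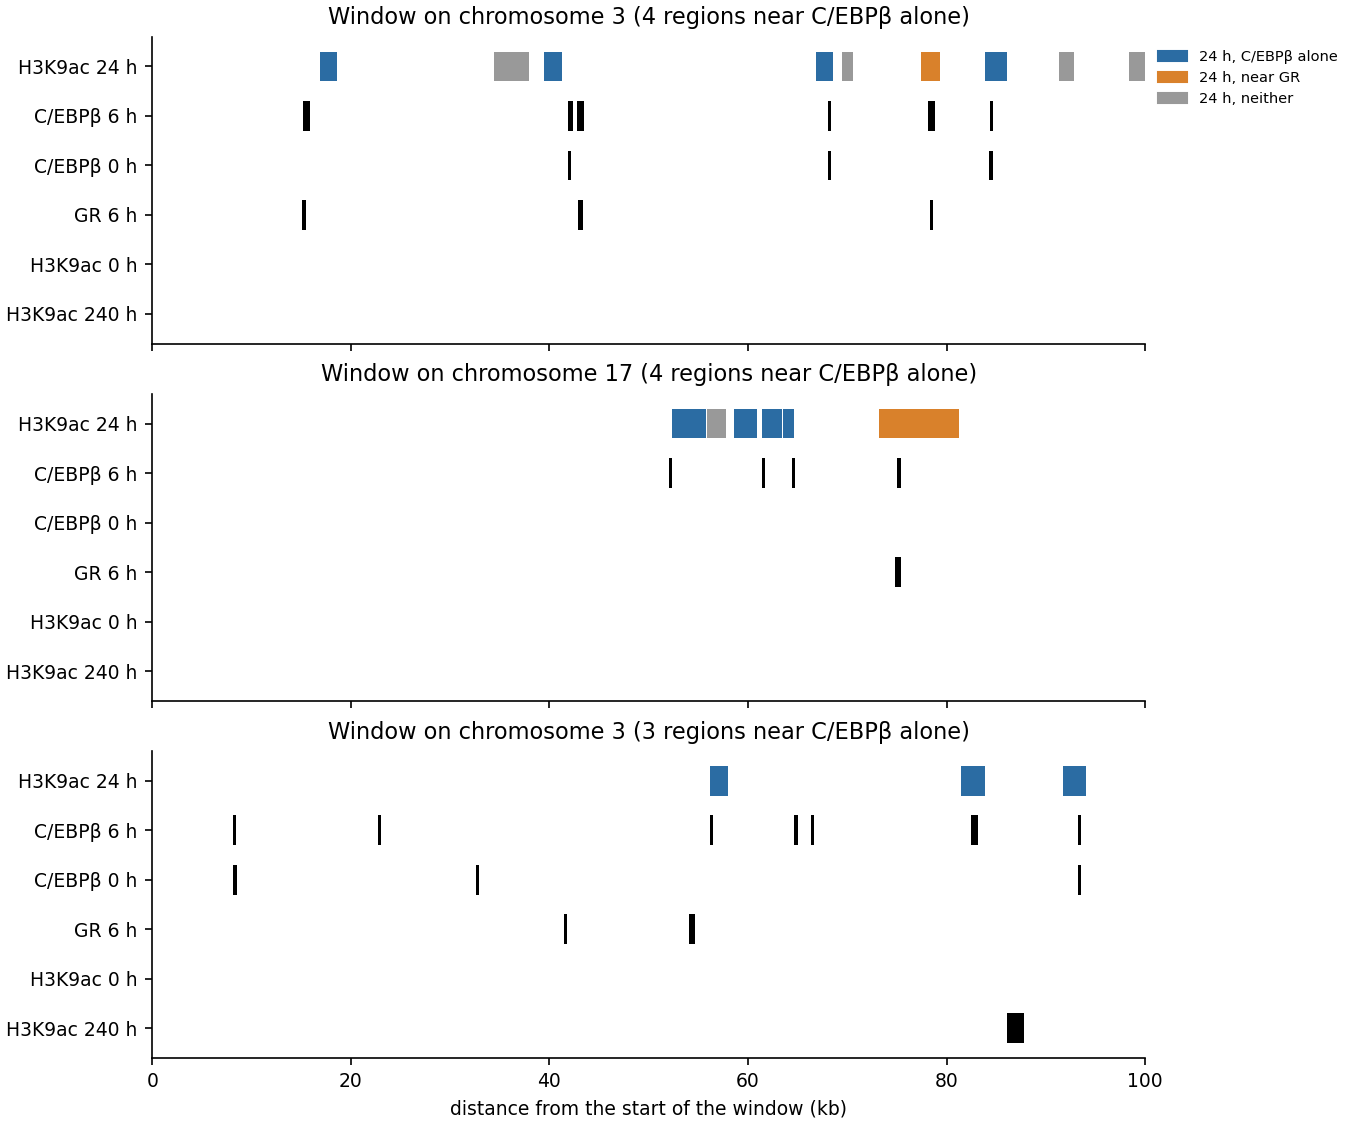
Positions of all listed peaks and regions in the 2 windows of 100 kb with 4 H3K9ac 24 h regions near C/EBPβ alone and the first by position of the 7 with 3, as distance from the window's start. Each row is 1 list; 24 h regions are blue with C/EBPβ alone, orange near GR and grey near neither, and in the middle window the 4 blue regions stand left of the orange region with the GR peak.

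The regions lay on all 20 chromosomes of the lists. Chromosome 2 held the most, 33 of its 143 24 h regions (23.1%, 16.9 to 30.6%), and chromosome 7 the fewest, 4 of 46 (8.70%, 3.43 to 20.3%). These 2 are the extremes by count among the 20 chromosomes, and the difference between them was not tested. None of the 294 overlapped the 6 regions of input bias that the authors deposited. The same count was not made for the other 24 h regions, so it sets the 294 apart from none of them.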

How the data were processed

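ChIP-seq lists of 3T3-L1 cells were used from 6 of 10 samples, and the 4 input samples were not analysed here. Per the labels' protocols, 36 bp reads were placed on mm8 with ELAND, allowing 2 mismatches, and 1 read was kept per start coordinate. The sources used here name no peak caller and no threshold. Per the file headers, the authors deposited for each factor peak a fold enrichment (a ratio) and a peak height (a read signal), and for each H3K9ac region an average read count (a read signal) and an FDR, a value of the p-value or q-value kind. Library totals, and thus depth, are unknown.

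Gaps were computed with Python 3.11.15, numpy 2.4.6 and pandas 2.3.3, and plots drawn with matplotlib 3.10.9. The gap code was tested on simulated lists. Shares have 95% Wilson and their differences 95% Newcombe intervals; a difference is called when its interval lacks 0. Named regions are the 10 with the highest average read count, the 5 with the highest C/EBPβ peak, the 5 with most C/EBPβ peaks, 3 windows of 100 kb with most of the regions, and those beside the 1 kb limits. Ties were broken by lower FDR, greater width and position for read counts, by fold enrichment and position for peak heights, by read count and position for peak numbers, and by position for windows. The regions and comparisons were chosen with earlier results of these data known. Alternatives changed the gap, the peaks, chromosomes, widths, read counts and distances. Genes and sequences were not analysed here, since the reference at hand is of another build.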

Additional observations from a re-analysis of the deposited data

How the results depend on the processing

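Of 72 recomputed differences under the alternatives fixed at the start, 59 kept direction and call, 8 lost the call and 5 changed sign. The cause of these changes was not tested. With regions of 1000 to 1500 bp, the FDR 0 difference was -3.57 points from regions near both factors and -0.835 from those near neither, the difference in 2 or more C/EBPβ peaks -7.90, that in another 24 h region within 10 kb of regions near C/EBPβ alone and near neither 6.67, and that in an H3K9ac 0 h region within 10 kb 2.995. With the median read count, the FDR 0 differences were -0.226 and 1.56, that in 2 or more peaks -1.28, and those in C/EBPβ at 0 h 3.92 from regions near both factors and -13.1 from 240 h regions. Only the peaks above the median of each factor list gave -5.02 for 2 or more peaks. For H3K9ac 240 h regions within 10 kb, direct overlap in the rule gave 0.432 and a distance of 5 kb gave 0.111.

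Among alternatives added after the data were seen, the height classes turned the C/EBPβ 0 h difference from regions near both factors to 7.07, 21.2 and 1.26 points, the class of 17 to 29 gave -8.41 from 240 h regions, and 50 kb gave 16.8 for GR. For differences added then, that in another 24 h region within 10 kb, compared with regions near both factors, gained its call with GR sought within 10 kb, at -13.7, and with a distance of 5 kb, at -7.77, and changed sign to 1.97 with direct overlap. The setting with GR sought within 10 kb itself moves regions from 1 of these classes to the other. Between regions with and without C/EBPβ at 0 h, widths of 1000 to 1500 bp gave -0.0279 for overlap and -3.96 for FDR 0, the median read count gave -1.77 and -1.30, and GR within 50 kb gave -5.71. No paired analysis was possible because the groups hold 1 library each. With depth unknown, the lists cannot show where a factor was absent.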
